A study of Mus musculus with 24 samples.

Results

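G9a knockout cells were compared with their parental line on day 10 of differentiation, over all genes of the deposited gene table. The comparison uses the 6 RNA libraries labelled day 10, of 24 samples in the series, chosen by genotype and day in the labels. The 3 knockout (KO) libraries came from the female mouse embryonic stem line 16.7 Tsix +/TST in which G9a was deleted, and the 3 parental (WT) libraries from 16.7 Tsix +/TST with G9a intact. Both groups thus carry the Tsix mutation on 1 X chromosome. Both were untreated apart from differentiation: LIF, the cytokine that holds stem cells undifferentiated, was withdrawn, and cells spent 4 days in suspension and 6 days on gelatin. The labels do not say how the deletion was made or how many knockout clones were used, and each library has a donor number of its own. Nothing says that libraries came from separate cultures, so all p-values measure only the spread between these samples.

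G9a, the product of Ehmt2, is the methyltransferase that, paired with GLP (the product of Ehmt1), places dimethylation on lysine 9 of histone H3 in euchromatin, a mark of silent genes. In embryonic stem cells it is known for the shutdown of pluripotency genes during differentiation and for holding down germline genes and genes of the 2-cell-like state. Cells that leave pluripotency normally silence Nanog, Zfp42 and their partners and turn on germ layer and Hox genes. Female cells also silence 1 X chromosome, coated by Xist RNA, while Tsix, the antisense transcript, restrains Xist.

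Values are reads per gene, over exons and introns, that the authors scaled to 1 common total per library ("scaled reads"). KO libraries held 2190467 to 3222164 reads and WT libraries 2813943 to 4220140, so that 1 read was worth 2.06 to 3.97 scaled reads. WT replicate 3 stood apart. Its log2 values correlated with the other libraries at 0.631 to 0.740, against 0.904 to 0.962 among the other 5. Receptor genes of smell, which belong to sensory neurons, took 31.1 to 65.9 CPM (counts scaled to depth, without ribosomal Rn45s) in KO, 78.5 and 44.3 in WT replicates 1 and 2, and 1093 in WT replicate 3. Of all genes 32.0 to 32.7% were at 0 in KO and 28.8, 26.7 and 15.3% in WT replicates 1, 2 and 3. Results are therefore given in 2 fits, one with all 6 libraries and one with 5, without WT replicate 3 (3 KO against 2 WT). Where no fit is named beside a gene that rose or fell, it is the 5-library fit. The day 10 label was set against stem cell markers: the 34 naive pluripotency genes summed to 4640 to 5150 CPM in KO and 1710 to 2930 in WT on day 10. On day 0 the sums were 9660 to 10400 in KO and 7350 to 11800 in WT. The 10 core pluripotency genes did not set the days apart as clearly. In KO they summed to 2200 to 2680 CPM on day 10 and 2150 to 2920 on day 0. In WT it was 1310 to 2510 and 2250 to 3390 CPM, so the days overlapped in both groups. Day 0 KO replicate 1 also stood out, with 1072 CPM of receptor genes of smell. These genes took 114 and 117 CPM in the other day 0 KO libraries and 377, 252 and 74.3 in day 0 WT. Day 0 KO replicate 1 is part of every day 0 value given here.

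Ehmt2 (NM_147151, mm9 chromosome 17, 35035437 to 35050995) was read in every library. It held 500, 758 and 628 scaled reads in KO and 1297, 1359 and 719 in WT. The KO libraries were below WT replicates 1 and 2, but KO replicate 2 was above WT replicate 3. The difference of means was -495.9 scaled reads (exact permutation test, two-sided p = 0.2; 3 against 3 libraries cannot go below 0.1), and the log2 change was -0.80 (SE 0.29, limma adjusted p = 0.326). In the 5-library fit Ehmt2 fell, with a log2 change of -1.10 (SE 0.22, limma adjusted p = 0.0262). Reads cover the whole gene and the labels do not name the deleted part, so remaining reads do not show remaining G9a protein. Ehmt1 held 1448, 1722 and 1831 scaled reads in KO and 1714, 2053 and 2084 in WT (log2 -0.23, limma adjusted p = 0.61).

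Over all genes, 1 of 14102 tested genes (0.00709%) passed an adjusted p of 0.05 as higher in KO and 0 as lower (limma on log2 of the scaled reads plus 1, Benjamini-Hochberg adjustment over all genes with a mean above 20). At an unadjusted p under 0.05 limma placed 640 genes higher (4.54%) and 1258 lower (8.92%). EdgeR called 0 and DESeq2 called 141 higher and 165 lower. The 5-library fit called 142 of 13038 genes (1.09%): 59 (0.453%) rose and 83 (0.637%) fell. TMM scaling moved the median log2 change of all genes to 0.01, against -0.10 with the authors' scaling, and turned the unadjusted split to 955 higher and 947 lower and the called split of the 5-library fit to 80 higher and 52 lower. Unless another scaling is named, the limma changes and calls given here use the authors' scaling, with that shift not taken out. By the p-values of the authors' deposited table for this contrast, after Benjamini-Hochberg adjustment, 286 genes pass, 43 with a log2 ratio above 0 and 243 below. In 227 of those 243 genes WT replicate 3 was over 2 times each other WT library, and in 208 of the 243 every KO library was also below WT replicates 1 and 2. In 42 of the 43 every KO library was above WT replicates 1 and 2. Of all genes in the 5-library fit, every KO library was below these 2 in 19.4% and above them in 11.8%. The 286 genes were chosen by p-values from the same libraries, so these counts are no independent support for them. The 5-library fit in limma called 33 of the 43 and 18 of the 243.

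**Figure D1:**
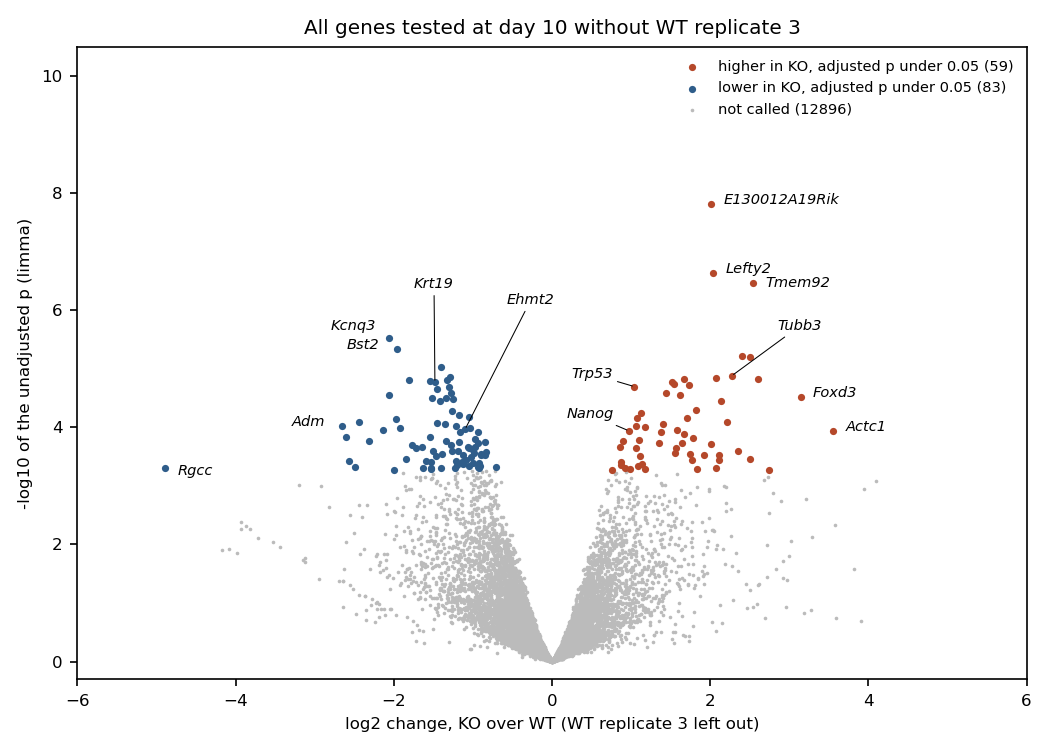
Each point is a gene: log2 change of KO over WT without WT replicate 3 on the horizontal axis, -log10 of the unadjusted limma p on the vertical axis. The 59 genes that rose and the 83 that fell are coloured, and E130012A19Rik stands highest.

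E130012A19Rik (NM_175332, mm9 chromosome 11, 97488701 to 97491030, minus strand) was the gene that passed with all 6 libraries, and is named here after its values were seen. RefSeq names it Epop, a protein that binds the Polycomb complex PRC2 and elongin in mouse stem cells. It held 2392, 2155 and 1950 scaled reads in KO and 624, 457 and 469 in WT, so each KO library was far above each WT library. The means were 2166 ± 221 in KO and 516 ± 93.1 in WT (SD, n = 3 each), a log2 change of 2.08 (SE 0.21, limma adjusted p = 0.0353). In the 5-library fit it was 2.01 (limma adjusted p = 0.000202). EdgeR on all 6 libraries gave an adjusted p of 0.185 for E130012A19Rik. On day 0 its log2 change was 0.53 (limma unadjusted p = 0.41).

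Genes of the naive pluripotency list, made for the stem cell ground state, stood higher in KO. The list also holds Lefty1, Lefty2 and Gdf3, which appear below under Nodal signalling, and Trim28, which appears below under H3K9 methylation. All 33 tested members of 34 had a log2 change above 0 with 6 libraries (42.7% of all genes had), with a median of 1.11 against -0.10 over all genes. In 25 every KO library was above every WT library (7.63% of all genes), and 24 were higher at an unadjusted p under 0.05 (4.54% of all genes), but 0 passed adjustment in limma. In the 5-library fit 31 of 33 were above 0, the median was 0.93 against -0.06 over all genes, and 25 were higher at an unadjusted p under 0.05 (5.83% of all genes). There 9 members rose at an adjusted p under 0.05 (0.453% of all genes did): Nanog, Zfp42, Klf2, Nr0b1, Nr5a2, Dppa2, Tex19.1, Gdf3 and Lefty2. No member fell. Relative to its mean over the 6 libraries, the median member stood at 0.61, 0.71 and 0.42 on the log2 scale in KO and at -0.43, -0.30 and -1.06 in WT, with WT replicate 3 the lowest. Klf4 and Utf1 were the members below 0 in that fit (log2 -0.38 and -0.17, neither past the test). With bulk RNA, more cells that keep the naive state and more RNA per cell cannot be told apart. This list and the others were chosen with earlier results of these data known, so their counts are no independent support.

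Nanog (mm9 chromosome 6, 122657507 to 122664651), the homeobox factor of the naive network, held 2134, 2210 and 1648 scaled reads in KO and 1050, 972 and 765 in WT. Every KO library was above every WT library (log2 1.10 with 6 libraries, limma adjusted p = 0.227, and 0.97 without WT replicate 3, adjusted p = 0.0262). Zfp42 (mm9 chromosome 8, 44380421 to 44392363), which encodes the zinc finger protein Rex1, showed the same order, with 2094, 2040 and 1427 in KO and 760, 927 and 494 in WT (log2 1.38 and, without WT replicate 3, 1.12, limma adjusted p = 0.0209). Klf2, another transcription factor of the naive state, held 1357, 934 and 766 in KO and 556, 344 and 80.5 in WT, and again the groups did not overlap (log2 1.18 in the 5-library fit, limma adjusted p = 0.0481). Nr0b1, the X-linked gene of the receptor Dax1, held 190, 197 and 99.8 in KO and 27.8, 51.5 and 28.7 in WT. Dppa2, a chromatin protein of early embryo and stem cells, held 250, 293 and 189 in KO and 80.3, 78.2 and 37.4 in WT. Nr0b1 and Dppa2 rose by 2.01 and 1.59 on the log2 scale (limma adjusted p = 0.0332 and 0.0262), with every KO library above WT.

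Nr5a2, an orphan nuclear receptor, held 397, 340 and 359 in KO and 98.8, 132 and 365 in WT. Its groups overlapped through WT replicate 3, and it rose by 1.67 on the log2 scale without that library (limma adjusted p = 0.0122). Tex19.1, a germ cell and stem cell gene, held 456, 501 and 413 in KO and 182, 132 and 97.7 in WT (log2 1.55 without WT replicate 3, limma adjusted p = 0.0123). Tdh, threonine dehydrogenase of stem cell metabolism, held 774, 958 and 1019 in KO and 67.9, 251 and 89.1 in WT. With a log2 change of 2.97 (limma adjusted p = 0.202) it did not pass, nor did it without WT replicate 3 (2.79, adjusted p = 0.0698).

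Core pluripotency genes are those that primed and naive cells share. The 10 members had a median log2 change of 0.65 with 6 libraries and 0.44 with 5, and 0 passed adjustment in limma. At an unadjusted p under 0.05, 4 and 5 were higher (4.54 and 5.83% of all genes), and 1 was lower with 5 libraries (9% of all genes). Pou5f1, the gene of Oct4, held 1777, 2253 and 1694 scaled reads in KO and 1414, 1244 and 385 in WT. Sox2, its partner, held 1210, 1407 and 858 in KO and 661, 612 and 216 in WT. In both genes the KO libraries were above the WT libraries, with log2 changes of 0.51 and 0.83 without WT replicate 3 (limma adjusted p = 0.216 and 0.0829). Of 11 tested genes of the primed epiblast list 1 rose without WT replicate 3 (0.453% of all genes did). There 7 were above 0 (44.1% of all genes) and 4 below, with a median log2 change of 0.46. The 1 gene was Foxd3, a forkhead factor of epiblast and neural crest. It held 91.2, 90.4 and 75.5 in KO and 12.4, 6.18 and 14.4 in WT (log2 3.14 without WT replicate 3, SE 0.56, limma adjusted p = 0.0134). These WT values lie near the floor of 3 reads, worth 9.26, 6.18 and 8.62 scaled reads there, so the size of the change is uncertain.

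The promoter of Zfp42 is shown because it holds the octamer, the word bound by Oct4 and other POU factors (ATGCAAAT, or ATTTGCAT on the other strand, in capitals). The sequence is from RefSeq, GRCm38.p6, chr8:43306960-43307259, minus strand, from 250 bases before the start to 50 after. The octamer is in 1.74% of 32851 promoter windows of that length and in 2 of 26 windows of the naive genes (7.69%). Counted by gene, 2 of the 20 naive genes matched to a window hold it. The match describes the sequence and shows no binding.
Zfp42: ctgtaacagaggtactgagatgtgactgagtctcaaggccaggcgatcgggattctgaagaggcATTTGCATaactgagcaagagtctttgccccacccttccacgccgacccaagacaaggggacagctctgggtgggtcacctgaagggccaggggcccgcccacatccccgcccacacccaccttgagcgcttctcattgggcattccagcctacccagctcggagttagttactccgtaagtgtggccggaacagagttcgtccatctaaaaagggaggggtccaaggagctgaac

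**Figure D2:**
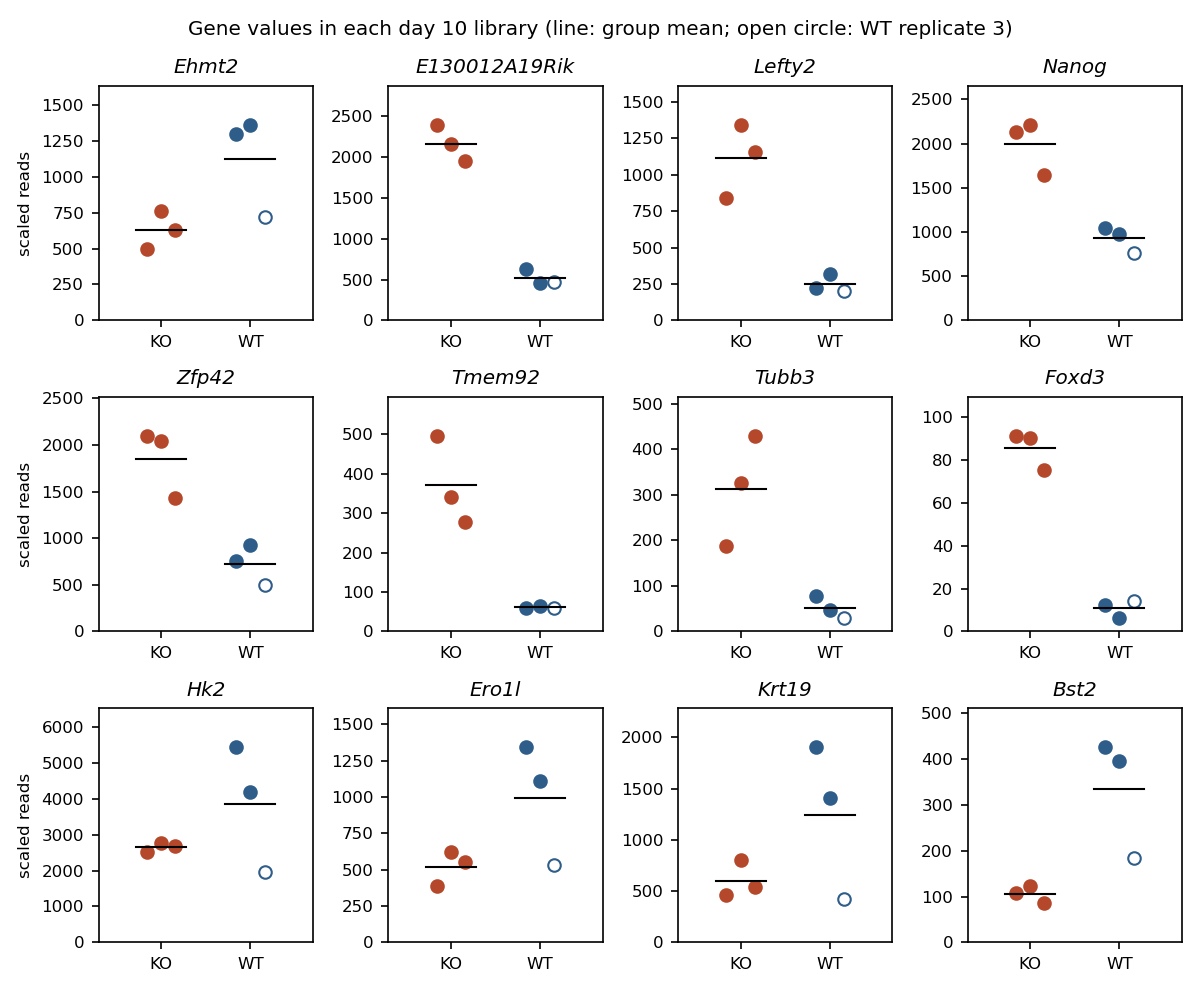
Scaled reads of 12 genes in each day 10 library, KO left and WT right, with a line at the group mean and an open circle for WT replicate 3. E130012A19Rik, Lefty2, Nanog, Zfp42, Tmem92, Tubb3 and Foxd3 are higher in every KO library, while Ehmt2, Hk2, Ero1l and Krt19 separate the groups only when WT replicate 3 is left out.

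Of Nodal signalling, the TGF-beta branch that maintains epiblast identity, Lefty2 and Gdf3 rose, and Lefty1 and Nodal did not pass. Lefty2 (NM_177099, mm9 chromosome 1, 182823250 to 182829233), a secreted inhibitor of Nodal, held 841, 1342 and 1154 scaled reads in KO and 222, 317 and 204 in WT. The groups were far apart (log2 2.16, SE 0.26, limma adjusted p = 0.0655 with 6 libraries, and 2.04, adjusted p = 0.00145, in the 5-library fit). Gdf3, a ligand of the same family, held 270, 329 and 345 in KO and 105, 96.8 and 135 in WT and rose by 1.62 on the log2 scale without WT replicate 3 (limma adjusted p = 0.0134). Lefty1 held 361, 726 and 607 in KO and 358, 121 and 170 in WT, with KO replicate 1 barely above WT replicate 1. Nodal itself held 508, 739 and 688 in KO and 534, 344 and 290 in WT, and its groups overlapped. Lefty1 and Nodal had limma adjusted p of 0.24 and 0.305 in the 5-library fit.

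Among 36 listed ligands and inhibitors of signalling, which include Lefty2 and Gdf3, 2 of 30 tested members rose (0.453% of all genes did) and 1 fell (0.637%) without WT replicate 3. Bmp7, a bone morphogenetic protein, was the one that fell. It held 294, 183 and 205 scaled reads in KO and 503, 581 and 673 in WT, with no overlap (log2 -1.28, SE 0.27, limma adjusted p = 0.0337). Fgf4, the FGF ligand of pluripotent cells, held 730, 956 and 744 in KO and 367, 486 and 164 in WT (log2 0.93 without WT replicate 3, limma adjusted p = 0.0588). Outside the list, Etv4 and Etv5, ETS factors that respond to FGF and ERK, rose by 1.14 and 0.76 on the log2 scale without WT replicate 3 (limma adjusted p = 0.0466 and 0.049). Etv5 held 2424, 2593 and 2721 in KO and 1442, 1610 and 1314 in WT. Epha2, an ephrin receptor of stem cells, rose by 1.07 (limma adjusted p = 0.0249). The receptors Fgfr2 and Igf1r fell, by 0.90 and 0.83 on the log2 scale (limma adjusted p = 0.0389 and 0.0371 in the 5-library fit).

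Genes of the 2-cell-like state, which resembles the early embryo and occurs in few stem cells, included 3 that rose, of 13 tested in the 5-library fit (0.453% of all genes rose). Of 24 listed genes 13 were tested, and 11 were above 0 and 2 below in both fits, while 42.7% of all genes were above 0 with 6 libraries and 44.1% with 5. The median log2 change was 0.91 with 6 libraries and 1.17 with 5, against -0.10 and -0.06 over all genes. Low members could pass the filter on the mean through KO, where they were high, so the counts above 0 are partly fixed in advance. Tmem92, a membrane protein gene (NM_001163172), held 496, 342 and 278 scaled reads in KO and 58.7, 63.8 and 60.4 in WT. All WT libraries were close together and far below KO (log2 2.54, SE 0.32, limma adjusted p = 0.00145 in the 5-library fit). Usp17le, of a deubiquitinase family, held 278, 230 and 146 in KO and 43.2, 35.0 and 43.1 in WT (log2 2.40, limma adjusted p = 0.0116). Zscan4d, of a zinc finger family that marks this state, held 123, 84.9 and 70.1 in KO and 21.6, 18.5 and 14.4 in WT (log2 2.12, limma adjusted p = 0.0437). Both families have near-identical copies, and how reads shared between copies were counted is not given in the sources used here. On day 0 the median log2 change of the list was 1.83, from libraries that differ in depth and in reads of the receptor genes of smell.

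Hox genes, which pattern the body axis, were low in these cells. Of 39 members 19 were tested with 6 libraries and all 19 were above 0 (42.7% of all genes were), with a median log2 change of 1.28. With 5 all 22 tested were above 0 (44.1% of all genes), with a median of 1.60. The filter took the mean over all libraries fitted, so low members could enter through KO, where they were high. For such members a change above 0 was partly fixed in advance, and the share over all genes is no like comparison. The summed levels below cover all 39 members. In limma 0 passed adjustment in either fit, and 5 and 12 were higher at an unadjusted p under 0.05 (4.54 and 5.83% of all genes). Hoxb9 held 55.5, 84.9 and 97.1 scaled reads in KO and 15.4, 22.6 and 17.2 in WT, without overlap (log2 1.99, limma adjusted p = 0.0652 in the 5-library fit). The summed Hox level was 193, 259 and 308 CPM in KO and 85.6, 133 and 140 CPM in WT. WT replicate 1 was the lowest. The same library was the lowest for 29 genes of gastrulation and mesoderm, which summed to 684, 704 and 870 CPM in KO and 277, 791 and 651 CPM in WT. The part of that library in the Hox result was not tested. On day 0 the median log2 change of the Hox list was 0.725. The day 0 sums were 104 to 118 CPM in KO and 46.7 to 94.3 CPM in WT. Of the mesoderm list 18 of 24 tested members were above 0 with 6 libraries and 19 of 22 with 5 (42.7 and 44.1% of all genes). The median log2 change was 0.42 and 0.72. In limma 0 members passed adjustment in either fit, and 4 were higher at an unadjusted p under 0.05 in both (4.54 and 5.83% of all genes).

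Some genes of neurons rose in KO. Tubb3, the neuronal beta-tubulin, held 186, 326 and 429 scaled reads in KO and 77.2, 47.4 and 28.7 in WT (log2 2.27 in the 5-library fit, limma adjusted p = 0.0122). The neurofilament genes Nefh and Ina rose as well, by 2.61 and 2.07 on the log2 scale (limma adjusted p = 0.0122 for each). Nefh held 131, 172 and 111 in KO and 27.8, 16.5 and 2.87 in WT. Ina held 250, 312 and 175 in KO and 49.4, 63.8 and 37.4 in WT. In none of these 3 genes did the groups overlap. The neuron list had a median log2 change of -0.29 over 16 genes tested with 6 libraries and of -0.02 over 14 with 5, and Tubb3 was the one member that rose (0.453% of all genes did).

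Muscle genes were uneven between libraries. Actc1, cardiac actin, held 87.3, 211 and 154 scaled reads in KO and 27.8, 4.12 and 0 in WT, where 0 allows up to 8.62 in that library. It rose without WT replicate 3 (log2 3.55, SE 0.66, limma adjusted p = 0.0262). Ttn, the giant sarcomere protein titin, held 214, 189 and 159 in KO and 58.7, 65.9 and 532 in WT. Ttn thus overlapped through WT replicate 3, and rose without it (log2 1.57, limma adjusted p = 0.0346). Cacna1s, a calcium channel of skeletal muscle, held 349, 307 and 208 in KO and 130, 70 and 77.6 in WT (log2 1.55, limma adjusted p = 0.0389). The cardiac list had a median log2 change of 0.06 over 13 tested genes and, without WT replicate 3, 0.60 over 11. Acta2, smooth muscle actin, and Myl9, its myosin light chain partner, were uneven within KO. Acta2 held 627, 3283 and 3042 in KO and 401, 356 and 178 in WT, with KO replicate 1 nearer to WT than to the other KO libraries. Myl9 showed the same order, with 151, 537 and 467 in KO and 102, 78.2 and 28.7 in WT. Neither passed (limma adjusted p = 0.428 and 0.12 in the 5-library fit). The smooth muscle list that holds both had a median log2 change of 0.27 over 15 tested genes and, without WT replicate 3, 0.14 over 14. There 8 members were above 0 (44.1% of all genes were) and 6 below, and 0 passed adjustment in limma.

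Trh, the gene of thyrotropin-releasing hormone, held 1051, 2856 and 2147 scaled reads in KO and 216, 352 and 276 in WT. All KO libraries were over all WT libraries (log2 2.75 in both fits, limma adjusted p = 0.121 with 6 libraries and 0.0497 in the 5-library fit). Trp53, the tumour suppressor p53, held 2340, 2612 and 2384 in KO and 1164, 1211 and 1397 in WT, 1.04 higher on the log2 scale without WT replicate 3 (limma adjusted p = 0.0123). Trp53 was the one of 20 listed p53 genes that passed as higher (0.453% of all genes did). Cdkn1a, its target that halts the cell cycle, held 1948, 2067 and 2052 in KO and 1634, 1295 and 992 in WT (limma adjusted p = 0.229), with every KO library above WT.

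Anxa8, an annexin, held 119, 137 and 94.4 in KO and 21.6, 26.8 and 14.4 in WT (log2 2.22 in the 5-library fit, limma adjusted p = 0.0244). Nxf3, an X-linked gene of the RNA export family, held 151, 159 and 178 in KO and 34.0, 22.7 and 43.1 in WT (log2 2.50, limma adjusted p = 0.0116). In both genes the groups did not overlap.

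Genes of glycolysis and the hypoxia response were, in the list median, lower in KO than in WT replicates 1 and 2 but not lower than in WT replicate 3. With 6 libraries 17 of 24 tested members were below 0 (57.3% of all genes were), with a median log2 change of -0.34, and 0 passed adjustment in limma (4 were lower at an unadjusted p under 0.05, as were 8.92% of all genes). In the 5-library fit 22 of 24 were below 0 (55.9% of all genes), the median was -0.57 against -0.06 over all genes, and 5 fell (0.637% of all genes did): Hk2, Gpi1, Aldoc, Ero1l and Adm. Of the 24, 15 were lower at an unadjusted p under 0.05 (9% of all genes). Relative to each gene's mean over the 6 libraries, the median member stood at -0.33, -0.044 and -0.097 on the log2 scale in KO and at 0.59, 0.33 and -0.49 in WT. On day 0 the median log2 change of the list was -0.36.

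Hk2 (mm9 chromosome 6, 82675021 to 82724448), hexokinase 2, which starts glycolysis, held 2515, 2768 and 2680 scaled reads in KO and 5435, 4174 and 1946 in WT. KO libraries lay close together, between WT replicate 3 and the other WT libraries (log2 -0.84 without WT replicate 3, SE 0.18, limma adjusted p = 0.0327). Gpi1, the isomerase of the next step, held 2079, 2410 and 1842 in KO and 5342, 3449 and 1181 in WT, and WT replicate 3 was again the lowest of all (log2 -1.03, limma adjusted p = 0.026). Aldoc, an aldolase, held 107, 126 and 86.3 in KO and 358, 383 and 92 in WT (log2 -1.81, limma adjusted p = 0.0122). Ero1l, an oxidase that serves disulfide formation in the endoplasmic reticulum and responds to hypoxia, held 385, 619 and 556 in KO and 1343, 1108 and 535 in WT (log2 -1.26, limma adjusted p = 0.0198). Adm, the gene of the vessel peptide adrenomedullin, held 19.8, 16.4 and 21.6 in KO and 176, 90.6 and 17.2 in WT (log2 -2.66, limma adjusted p = 0.0249).

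Egln1, Pfkfb3 and Hif3a, known targets or regulators of the HIF factors that are not in the list and were picked after their values were seen, fell too without WT replicate 3. Egln1, the prolyl hydroxylase that marks HIF for destruction, held 710, 994 and 987 in KO and 2656, 1785 and 1362 in WT. Here WT replicate 3 was also above KO (log2 -1.30, limma adjusted p = 0.0123). Hif3a held 218, 95.8 and 97.1 in KO and 386, 352 and 313 in WT, again without overlap (log2 -1.53, limma adjusted p = 0.0481). Pfkfb3, a kinase that speeds glycolysis, fell by 1.27 (limma adjusted p = 0.0134). Slc2a3, a glucose transporter, held 31758, 22846 and 24187 in KO and 55261, 34667 and 29818 in WT and did not pass (limma adjusted p = 0.0886 in the 5-library fit).

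The promoters of Hk2, Aldoc and Ero1l (Ero1a in RefSeq) are shown because each holds the core word of the hypoxia response element, ACGTG, or CACGT on the other strand, in capitals. The sequences are from RefSeq, GRCm38.p6, 250 bases before to 50 after the start: chr6:82774405-82774704 (minus strand), chr11:78322823-78323122 (plus strand) and chr14:45318523-45318822 (minus strand). The word is in 17 of 33 windows of the list genes (51.5%) and in 19.6% of 32851 promoter windows. Counted by gene, 16 of the 23 list genes matched to a window hold it in any of their windows. Being short it is a description of these letters and shows no site in use.
Hk2: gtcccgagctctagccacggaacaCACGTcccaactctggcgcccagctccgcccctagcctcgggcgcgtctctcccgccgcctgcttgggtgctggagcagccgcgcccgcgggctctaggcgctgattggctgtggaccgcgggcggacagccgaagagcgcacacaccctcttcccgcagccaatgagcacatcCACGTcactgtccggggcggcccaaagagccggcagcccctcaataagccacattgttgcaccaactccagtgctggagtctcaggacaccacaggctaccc
Aldoc: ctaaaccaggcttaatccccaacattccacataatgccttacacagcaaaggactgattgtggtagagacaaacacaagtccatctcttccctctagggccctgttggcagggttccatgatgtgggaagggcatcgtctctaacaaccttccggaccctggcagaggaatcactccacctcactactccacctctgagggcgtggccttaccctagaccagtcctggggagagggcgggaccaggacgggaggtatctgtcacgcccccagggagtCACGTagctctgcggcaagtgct
Ero1l: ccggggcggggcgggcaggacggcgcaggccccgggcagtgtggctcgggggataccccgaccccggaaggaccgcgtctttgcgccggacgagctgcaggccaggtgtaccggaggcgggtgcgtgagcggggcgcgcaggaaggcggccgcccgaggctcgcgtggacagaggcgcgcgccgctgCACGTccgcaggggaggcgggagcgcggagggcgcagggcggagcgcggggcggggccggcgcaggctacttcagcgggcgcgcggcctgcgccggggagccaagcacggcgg

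**Figure D3:**
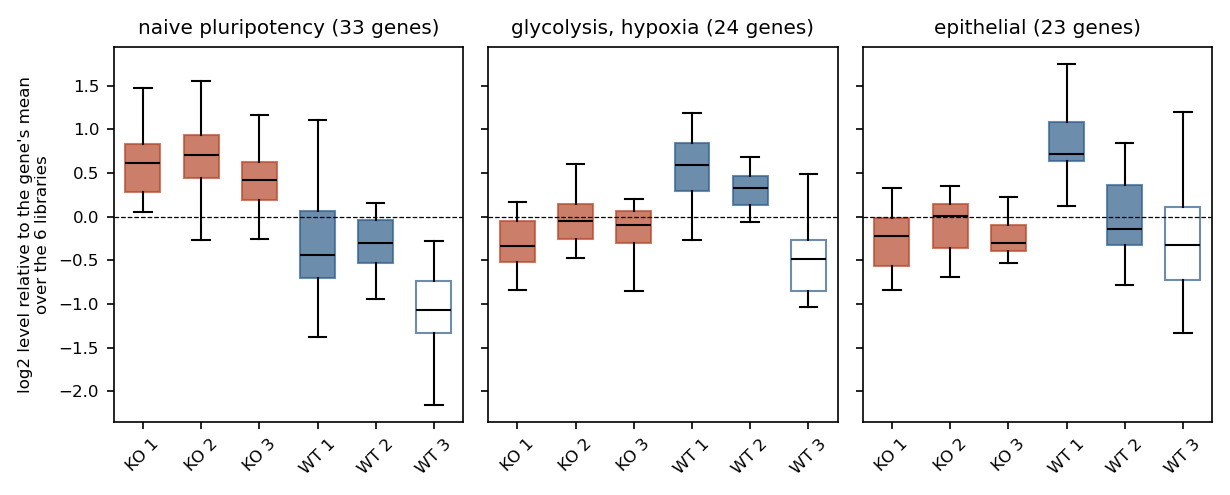
Log2 level of each list member relative to its mean over the 6 libraries, per library (box: quartiles, line: median, whiskers: range of values within 1.5 box lengths, values beyond them not drawn), KO left and WT right, with WT replicate 3 open. Naive pluripotency genes are higher in all 3 KO libraries, the glycolysis and hypoxia genes are highest in WT replicates 1 and 2, and the epithelial genes stand out in WT replicate 1 alone.

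Epithelial genes were highest in WT replicate 1. With 6 libraries 0 of 23 passed in limma (3 were lower at an unadjusted p under 0.05, as were 8.92% of all genes). In the 5-library fit 22 of 23 tested members were below 0 (55.9% of all genes were), and the median log2 change was -0.61 against -0.06 over all genes. There 10 were lower at an unadjusted p under 0.05 (9% of all genes), and 1, Krt19, a keratin of simple epithelia, fell (0.637% of all genes did). The median member stood at -0.23, 0.0047 and -0.30 on the log2 scale relative to its mean in KO and at 0.72, -0.15 and -0.33 in WT, so WT replicate 2 was within the range of KO. Krt19 held 460, 808 and 542 scaled reads in KO and 1905, 1406 and 420 in WT (log2 -1.48, SE 0.25, limma adjusted p = 0.0122 in the 5-library fit). Crb3, a polarity protein of epithelia, held 39.7, 24.6 and 51.2 in KO and 136, 107 and 89.1 in WT, without overlap, and did not pass (limma adjusted p = 0.0847).

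Of 21 tested genes of the interferon response list, Bst2 fell in the 5-library fit (0.637% of all genes fell). Bst2, the antiviral membrane protein tetherin, held 107, 123 and 86.3 scaled reads in KO and 426, 395 and 184 in WT, with no overlap (log2 -1.96, SE 0.30, limma adjusted p = 0.0116 in the 5-library fit). Of the 21 members 6 were above 0 (44.1% of all genes were), and the list median was -0.51 against -0.06 over all genes. The guanylate-binding protein genes Gbp2 and Gbp2b, outside the list and picked after their values were seen, fell by 1.42 and 1.51 (limma adjusted p = 0.0139 and 0.0134). Gbp2 held 321, 249 and 213 in KO and 766, 620 and 400 in WT. Gbp2 and Gbp2b are related in sequence, and how reads shared between them were counted is not given in the sources used here.

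**Figure D4:**
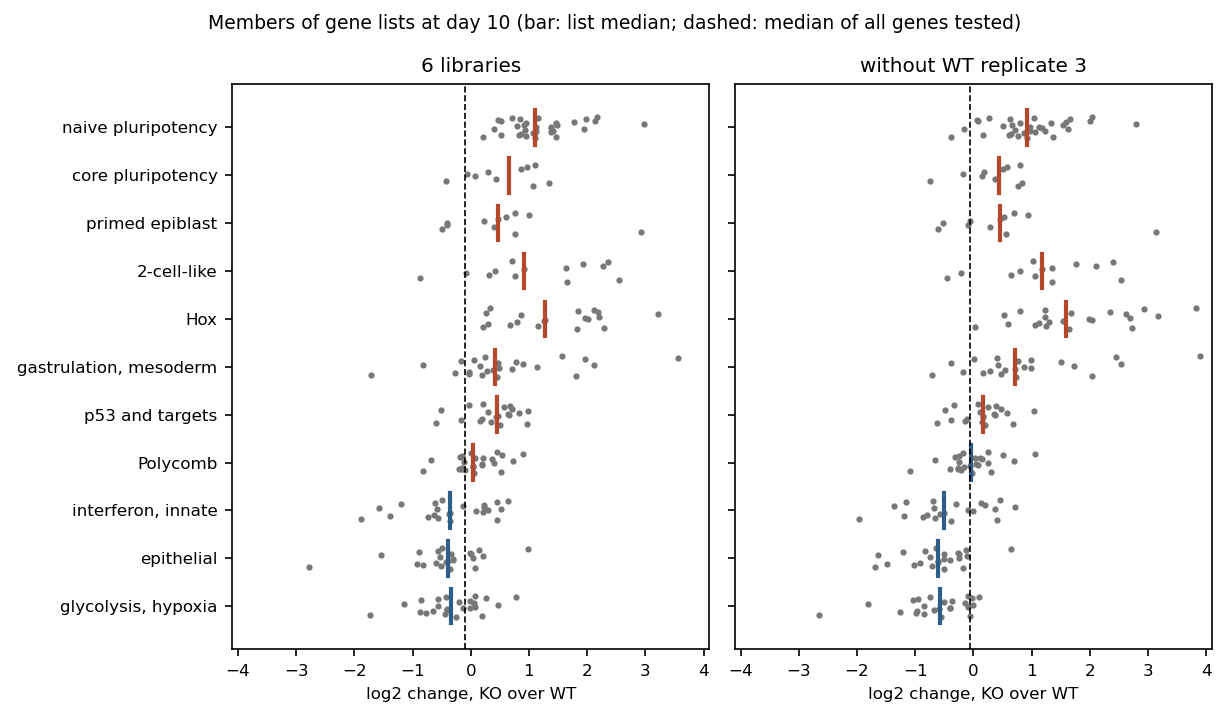
Log2 change of KO over WT for the tested members of 11 gene lists, with 6 libraries (left) and without WT replicate 3 (right); a bar marks the list median, a dashed line the median of all genes, and values beyond 4 are drawn at the edge. The medians of the naive pluripotency, 2-cell-like and Hox lists lie right of the dashed line in both panels, and those of the glycolysis and hypoxia and the epithelial lists lie farther left without WT replicate 3.

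Of the 12 lowest genes with 6 libraries, by size of change among those with the smallest p, 11 were highest in WT replicate 3. Kcnq3, a subunit of the neuronal M-type potassium channel (NM_152923), held 190, 112 and 105 scaled reads in KO and 556, 546 and 1391 in WT. It fell also without WT replicate 3 (log2 -2.06, SE 0.31, limma adjusted p = 0.00979). Kcnj3, an inward rectifier channel, held 51.6, 19.2 and 29.7 in KO and 195, 152 and 819 in WT (log2 -2.44, limma adjusted p = 0.0244). Prkar1b, Cmtm8, Clic5 and Catsperg1 fell in that fit as well, by 1.97 to 2.61 on the log2 scale, and among the 12 genes Catsperg1 was the one that was not highest in WT replicate 3. Glra3, a glycine receptor subunit, had 0 reads in all 3 KO libraries, which allows up to 8.09 to 11.9 scaled reads, and 40.1, 24.7 and 506 in WT. Pde1a, Syt16, Fank1, Dgkg and Kcnn3 complete the 12, and none of them passed without WT replicate 3, where Glra3 and Pde1a were below the filter. The part of the background reads of WT replicate 3 in these values was not tested.

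Among chromatin regulators in the 5-library fit, 1 member each of the Polycomb and H3K9 methylation lists passed in limma. Of the H3K9 demethylation list 0 of 10 passed (0 were higher and 1 lower at an unadjusted p under 0.05), and of the DNA methylation list 0 of 15 (3 higher and 0 lower). At that unadjusted p 5.83% of all genes were higher and 9% lower. Ezh1, a catalytic subunit of PRC2, held 317, 304 and 267 scaled reads in KO and 732, 539 and 356 in WT, without overlap (log2 -1.09, limma adjusted p = 0.0429 in the 5-library fit). It was the only Polycomb gene of 24 tested that passed (0.637% of all genes fell), and the list median was -0.04 (0.02 with TMM scaling). Of 17 genes of H3K9 methylation Ehmt2 alone passed, as lower (0.637% of all genes fell). Trim28, the corepressor that brings H3K9 methylation to retroviruses, held 5581, 7661 and 6790 in KO and 4172, 3910 and 2633 in WT (log2 0.71, limma adjusted p = 0.0585). Suv39h1, a methyltransferase of heterochromatin, held 1206, 1624 and 1710 in KO and 599, 1188 and 721 in WT (log2 0.83, limma adjusted p = 0.16). Both were higher in every KO library but did not pass. Germline genes, a class known to be held down by G9a, had a median log2 change of -0.48 over 23 tested genes with 6 libraries. Without WT replicate 3 it was 0.02 over 22. In limma 0 passed in either fit, and 1 and 2 were higher at an unadjusted p under 0.05 (4.54 and 5.83% of all genes).

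Xist held 3459, 4110 and 4698 scaled reads in KO and 4635, 5681 and 7163 in WT, overlapping by KO replicate 3 and WT replicate 1 (log2 -0.50, limma adjusted p = 0.379). Tsix held 460, 356 and 280 in KO and 281, 292 and 572 in WT, with overlap and a log2 change of -0.01 that turned to 0.10 with TMM scaling (limma adjusted p = 0.991 and 0.899). Xist and Tsix lie on opposite strands of one locus and the strand setting of the counts is not given in the sources used here, so reads of one may be counted for the other. X-linked genes took 3.58, 3.71 and 3.55% of reads outside Rn45s in KO and 2.98, 3.29 and 3.39% in WT. The KO libraries were above the WT libraries by 0.394 percentage points on average (exact permutation test, two-sided p = 0.1, the smallest that 3 against 3 allows), and of 19 autosomes 4 also did not overlap, 2 with KO above and 2 below. Of 518 X-linked genes tested with 6 libraries 288 (55.6%) had a log2 change above 0, against 42.7% of all genes, with a median of 0.10. With 5 it was 306 of 481 (63.6%), against 44.1% of all genes, with 8 that rose (0.453% of all genes did), among them Nr0b1, Nxf3, Slc25a5 and Ebp, and 2 that fell (0.637%).

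The line is a hybrid whose deposited allele columns are named mus and cas, so reads can be split by X chromosome. Over the 206 X-linked genes whose mus and cas reads came to 10 or more in each day 10 library, the mus share was 33.3% (95% Wilson interval 32.4 to 34.2), 33.0% (32.3 to 33.7) and 30.2% (29.5 to 30.9) in KO. In WT it was 25.0% (24.2 to 25.7), 25.0% (24.5 to 25.6) and 29.8% (29.1 to 30.5). WT replicate 3 lay close to KO replicate 3 and far from the other WT libraries, and the intervals cover counting error only. The means were 32.1 ± 1.72% in KO and 26.6 ± 2.77% in WT (SD, n = 3 each), a difference of 5.54 percentage points (exact permutation test, two-sided p = 0.1, the smallest possible). With WT replicate 3 left out the difference was 7.09 points. With genes of at least 5 allelic reads the difference was 5.47 points and the groups overlapped (exact permutation test, two-sided p = 0.2). Gene by gene, with reads pooled over the 3 libraries of each group, the mus share was higher in KO in 156 of the 206 genes and lower in 48. Libraries with more reads weigh more in a pooled share. Xist reads were 95.3 to 97.1% mus in KO and 96.9 to 98.7% in WT, so in both groups Xist came almost wholly from the mus chromosome. With Xist left out, a setting added after the data had been seen, the X share averaged 29.9% in KO and 23.3% in WT. The mus share of 7460 autosomal genes was 81.3 to 81.6% in KO and 81.7 to 83.0% in WT, lower in each KO library, in the direction opposite to X.

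**Figure D5:**
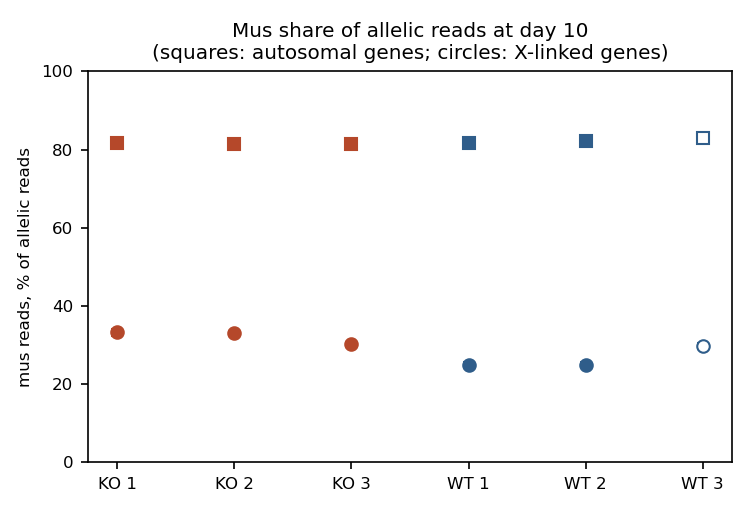
Share of mus reads among mus and cas reads in each day 10 library, for X-linked genes (circles) and autosomal genes (squares), KO left and WT right, WT replicate 3 open. X-linked shares are 33.3, 33.0 and 30.2% in KO and 25.0, 25.0 and 29.8% in WT, and autosomal shares lie between 81.3 and 83.0% in all.

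H3K9ac, an acetyl mark of active promoters on the residue that G9a methylates, was mapped on day 10 in 1 KO and 1 WT sample, so no test is possible. The authors' lists hold 51501 peaks over 50.1 Mb in KO and 37310 over 41.1 Mb in WT, with 1 list per sample, and the depth behind each list is not given in the sources used here. Within 1000 bases of the start, 83.3% of tested genes had a peak in KO and 82.2% in WT. Of the 59 genes that rose in the 5-library fit, 57.6% had one in KO and 62.7% in WT, and of the 83 that fell 78.3% had one in each. E130012A19Rik, Ehmt2, Hk2, Krt19 and Aldoc had a promoter peak in both samples. Of the 59, 3 had a peak in KO alone and 6 in WT alone, and of the 83, 8 and 8. Adm, which fell, had one in WT alone, and Nxf3, which rose, had one in KO alone. The reverse held for Nr0b1, Dppa2 and Foxd3, which rose with a peak in WT alone. It also held for Hif3a and Clic5, which fell with a peak in KO alone. Lefty2, Tmem92, Usp17le, Tubb3, Actc1 and Tdh had none in either sample. Of the 24 genes named by size of change, 9 had a peak in KO and 9 in WT.

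The difference of the KO effect between day 10 and day 0 was tested over all 12 RNA libraries. In limma 0 of 14739 genes passed (953 at an unadjusted p under 0.05), in edgeR 0 (1597) and in DESeq2 81. The day 0 libraries held from 2081129 to 30527844 reads. Day 0 KO replicate 1, with 1072 CPM of receptor genes of smell, was kept in the test. The naive list had a median log2 change of 1.11 on day 10 and 0.32 on day 0, and the 2-cell-like list 0.91 and 1.83. No gene named here passed that test in limma.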

How the data were processed

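RNA of 3 KO and 3 WT libraries and H3K9ac ChIP of 1 KO and 1 WT sample, all of day 10, were analysed, and the 6 day 0 RNA libraries entered the test between days. Per the submitters' processing notes the tools were TopHat and HOMER for RNA, and Novoalign and MACS2 for ChIP, on mm9. Versions, strand and the treatment of reads with several positions are not given in the sources used here.

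Per gene and library, the authors deposited a signal, the reads brought to 1 common total. They also deposited log2 ratios and p-values of their own comparisons. Allele-specific read counts, mus and cas, were deposited in a separate table, of which 12 columns of per-sample values were not used. Peak lists deposited by the authors hold, per the file headers, fold enrichment and −log10 p-values. The design allowed for counts, but the table holds scaled signal: 99.99% of values were whole reads within 0.006 reads once divided by the worth of 1 read. For 99.48% of 24016 genes the stated length is the span from first to last base, introns included.

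Genes with a mean above 20 scaled reads over the libraries fitted were tested on log2 of the value plus a pseudocount of 1 with limma 3.58.1 (trend, robust) in R 4.3.3, with Benjamini-Hochberg adjustment at 0.05. Recovered reads were tested with edgeR 4.0.16 and DESeq2 1.42.0 as alternatives. A fold change on this scale understates the change of low genes. Shares of allelic reads have Wilson 95% intervals, and group means were compared by exact permutation. A count of 0 allows up to 3 reads, and intervals and this floor cover counting error only. On data simulated from these libraries limma recovered 62% of genes changed 4-fold and 5% of genes changed 2-fold with 6 libraries, and 98% and 55% without WT replicate 3. It also called 4 unchanged genes with 6 libraries and 15 without WT replicate 3. Changes were planted only in genes with a higher mean than the filter asks for, so recovery of low genes was not measured. All simulated libraries shared 1 profile apart from depth and the planted changes. The background reads of WT replicate 3 thus entered only through the mean and spread of each gene.

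The genes named are Ehmt2, Ehmt1, Xist and Tsix, the 12 highest and 12 lowest by log2 change among the 100 smallest p in each direction with groups that do not overlap and a mean of at least 50, and the 3 members of each list with the smallest p. Others were picked from genes called without WT replicate 3 after their values were seen. The members and lists were chosen with earlier results of these data known. Figures were drawn with matplotlib 3.10.9.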

Additional observations from a re-analysis of the deposited data

How the results depend on the processing

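The number of calls depended on WT replicate 3 in limma and edgeR, while DESeq2 gave a similar number with and without it. Against 1 gene passing in limma, RLE scaling gave 0, TMM scaling 4, no filter 4, a mean filter of 100 gave 3, all 12 libraries in the fit 0, edgeR 0, DESeq2 306, array weights 2826 and a 1.5-fold threshold 0. Leaving out 1 library at a time gave 0 to 142, with 142 for WT replicate 3. Settings added after the data had been seen, all without that library, gave 210 (edgeR), 301 (DESeq2) and 132 (TMM). For the difference between days DESeq2 gave 81 where limma gave 0. A fold enrichment of at least 4 left promoter peaks at 0 of the named genes in KO and 1 in WT.

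The fit with the replicate number as a block (replicate block) passed 0 genes. The numbers do not pair the libraries, since deviations of same-numbered libraries correlated at -0.014, 0.17 and -0.0046, and only 1 of 3 KO libraries correlated best with its own number.

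Ehmt2 passed with array weights (log2 -1.02) and without WT replicate 3 by limma, edgeR, DESeq2 and TMM scaling (-1.10, -1.02, -1.02 and -1.03), and ranged from -0.638 to -1.10 with 1 library left out. Of 1781 values of 90 named genes under planned settings 14, in 5 genes, changed sign. Tsix was at 0.0619 (RLE), 0.0979 (TMM), 0.0297 (edgeR), 0.0073 (DESeq2), 0.16 (array weights), -0.191 to 0.32 with 1 library left out, and 0.408, 0.409 and 0.389 by edgeR, DESeq2 and TMM without WT replicate 3. In the same order of these last 3, Klf4 was at -0.253, -0.239 and -0.315 and Utf1 at -0.293, -0.308 and -0.0983. Klf4 was at -0.0523 with array weights and ranged from -0.384 to 1.71 with 1 library left out, Utf1 from -0.167 to 1.05, Ttn from -0.0132 to 1.57 and Gpi1 from -1.03 to 0.0551. Ttn was at -0.118 with edgeR and -0.153 with DESeq2. The cause of these changes was not tested.

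The X-linked mus share differed by 4.58 to 7.17 percentage points under every setting run. At 2190467 to 4220140 reads a library, genes below about 20 scaled reads cannot be compared.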
